A study of Mus musculus with 2 samples.

Results

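The 38 genes described here act in meiotic recombination, in the crossover pathway that follows from it and in the cohesin rings and telomere attachments that hold meiotic chromosomes. They were chosen by symbol from a list of recombination, crossover and cohesin genes, with no use of their values in the rule, and all 38 were found among the 39232 genes of the count tables of mouse testis cells. Testis tissue of male C57 BL/6 mice was dissociated and profiled by droplet single-cell RNA sequencing in 2 libraries, 1 per group and with no replicate. In the study, mice aged 5 weeks were adapted for 1 week and 20 mice were then split into 10 per diet, one diet with 60% of its energy as fat and the other a maintenance feed, each for 12 weeks. One library is labelled with the high-fat diet and is called the high-fat library. The label of the other names no diet, and it is called the comparison library. The number of mice that went into each is not stated. Diet, animal, library and run cannot be told apart. "Higher" and "lower" therefore compare 2 libraries.

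In meiosis, the cell copies its DNA and then divides without copying it again, so that sperm carry a single set of chromosomes. Early in prophase, at leptotene, the enzyme SPO11 cuts chromosomes at sites marked by the methyltransferase PRDM9. The broken ends are trimmed and coated with strand-exchange proteins such as DMC1, which search for the homologous chromosome during zygotene. At pachytene the homologues lie fully paired, and a minority of the joined sites become crossovers under the MSH4-MSH5 complex and other factors. Cohesin rings made with the meiotic subunits REC8, RAD21L, STAG3 and SMC1B form the axis on which this takes place, and telomeres are tied to the nuclear envelope so that chromosomes can move and find each other.

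Transcription factors of meiotic entry act at gene promoters, and their binding was not measured here. The start-site windows of 30 of the 38 genes matched the RefSeq promoter table (build GRCm38.p6, 250 bases before to 50 after the annotated start), and 3 motifs known from mouse germ cells were searched on both strands. The motif CNCCTCAG, bound by STRA8 and MEIOSIN, was found in 4 of the 30 (Prdm9, Msh5, Hfm1 and Sun1), or 13.3%, and in 9.12% of all 27025 genes in the table. TTCCCGCC, the E2F motif, was found in 5 of the 30 (Prdm9, Rad51ap2, Spata22, Rnf212 and Msh5), or 16.7%, and in 2.52% of all genes. The MYB motif GGCAGTT was found in 0 of the 30 windows and in 4.76% of all genes. The 6 windows below belong to genes whose level was highest in leptotene-zygotene cells in both libraries, and they are shown 5′ to 3′ in the direction of the gene with the motif letters in capitals. Every motif except 1 pair stood apart from the others: in Prdm9 the E2F letters, which begin 47 bases before the start, overlap a CNCCTCAG match that begins 41 bases before it.
Prdm9, chr17:15564305-15564604, minus strand: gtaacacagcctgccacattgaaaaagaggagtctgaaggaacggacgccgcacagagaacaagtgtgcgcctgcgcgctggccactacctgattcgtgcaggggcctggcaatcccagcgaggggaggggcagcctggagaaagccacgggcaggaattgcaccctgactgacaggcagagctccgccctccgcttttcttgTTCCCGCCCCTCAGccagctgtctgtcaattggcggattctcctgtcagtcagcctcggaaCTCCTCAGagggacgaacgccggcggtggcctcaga
Msh5, chr17:35046573-35046872, minus strand: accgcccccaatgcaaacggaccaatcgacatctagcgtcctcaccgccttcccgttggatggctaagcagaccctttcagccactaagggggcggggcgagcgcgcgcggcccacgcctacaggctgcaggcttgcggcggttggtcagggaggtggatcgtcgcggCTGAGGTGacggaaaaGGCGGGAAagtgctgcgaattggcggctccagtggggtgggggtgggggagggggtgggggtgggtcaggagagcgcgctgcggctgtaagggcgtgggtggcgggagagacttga
Hfm1, chr5:106925841-106926140, minus strand: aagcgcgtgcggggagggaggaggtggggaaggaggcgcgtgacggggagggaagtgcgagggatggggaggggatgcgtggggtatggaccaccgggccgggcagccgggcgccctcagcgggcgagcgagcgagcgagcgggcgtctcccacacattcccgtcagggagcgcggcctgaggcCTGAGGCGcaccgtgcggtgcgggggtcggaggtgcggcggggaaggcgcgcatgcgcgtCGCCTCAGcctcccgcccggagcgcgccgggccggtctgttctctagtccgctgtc
Rad51ap2, chr12:11455805-11456104, plus strand: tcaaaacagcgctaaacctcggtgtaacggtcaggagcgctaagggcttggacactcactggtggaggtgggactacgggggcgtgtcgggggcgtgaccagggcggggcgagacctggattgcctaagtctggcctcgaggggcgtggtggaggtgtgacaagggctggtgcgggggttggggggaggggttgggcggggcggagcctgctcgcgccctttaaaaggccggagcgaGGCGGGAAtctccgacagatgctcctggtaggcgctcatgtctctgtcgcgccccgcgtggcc
Spata22, chr11:73329491-73329790, plus strand: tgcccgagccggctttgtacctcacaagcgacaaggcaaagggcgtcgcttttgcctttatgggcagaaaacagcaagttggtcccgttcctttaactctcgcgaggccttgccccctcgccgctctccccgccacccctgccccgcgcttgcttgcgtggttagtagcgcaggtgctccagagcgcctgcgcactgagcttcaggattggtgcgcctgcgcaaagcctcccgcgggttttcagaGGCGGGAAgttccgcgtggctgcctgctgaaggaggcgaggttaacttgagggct
Rnf212, chr5:108774978-108775277, minus strand: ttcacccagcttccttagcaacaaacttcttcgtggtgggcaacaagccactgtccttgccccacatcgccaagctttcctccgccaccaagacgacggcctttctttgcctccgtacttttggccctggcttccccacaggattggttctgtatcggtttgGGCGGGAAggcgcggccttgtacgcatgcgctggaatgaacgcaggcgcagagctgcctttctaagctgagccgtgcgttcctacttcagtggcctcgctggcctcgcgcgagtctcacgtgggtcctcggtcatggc
A match is a run of letters, not a known binding site.

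The high-fat library held 12661 barcodes and 201842085 unique molecular identifiers (UMIs, 1 per captured transcript), with a median of 9772 per barcode, and the comparison library held 13805 barcodes and 207667609 UMIs, with a median of 13024. After filters, 11868 and 12946 cells were kept. Clusters were made without the 38 genes and named from markers that hold none of them, so the stage names below mean cells that look like that stage by other transcripts. The germ cell stages held, in the high-fat library and the comparison library, 843 and 679 spermatogonia, 423 and 210 leptotene-zygotene cells, 969 and 1132 pachytene spermatocytes, 2999 and 3925 late spermatocytes, 2600 and 3871 round spermatids and 815 and 978 elongating spermatids. Although both labels name germ cells, 1242 and 730 cells were Sertoli-like, the somatic nurse cells of the tubule. The pachytene class is clusters 10 and 13, and the late spermatocyte class is clusters 14, 1, 4 and 0. Among its 10 leading genes, cluster 10 had Pou5f2, a marker from the late spermatocyte list, and cluster 14 had Mybl1, one from the pachytene list, and neither had a marker of its own list. These 2 classes are therefore used to follow levels along development, and the libraries are compared there by cluster number. No marker of any list was among the 10 leading genes of clusters 13, 1, 4 and 0. The same held for round spermatid clusters 5, 3, 6 and 11 and elongating spermatid cluster 8. Their names rest on the marker scores alone. Cluster 0 had the lowest score of the named clusters, 0.73. Its leading genes included Ssxb1, Gm3453, Gm3573 and Gm10376, which also lead round spermatid cluster 5. The words spermatocyte clusters below follow the class names only. Median depth differed by stage: it was 2317 and 2048.5 UMIs per cell in leptotene-zygotene cells but 17735 and 15144 at pachytene. Levels are counts summed over the cells of a stage per 1000000 UMIs of that stage (CPM), with exact Poisson 95% intervals that cover counting error only. Transcript length was not used, so levels are compared between stages and libraries, never between genes.

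Among the 6 germ cell stages, all 38 genes had their highest level in the same stage in both libraries. For 30 of them, 78.9%, that stage was leptotene-zygotene, the stage of break formation and repair. Among all genes that reached 5 CPM in any stage, 26.1% were highest there in the high-fat library and 27.1% in the comparison library. Rec114, Trip13 and Exo1 were highest in spermatogonia, Spo11, Mlh3, Psmc3ip and Cntd1 at pachytene, and Rec8 in round spermatids. None of the 38 was highest in late spermatocytes or elongating spermatids. These levels are shares of a stage's UMIs, so a fall in level is a fall in share. Median depth in leptotene-zygotene cells was 2317 (high-fat) and 2048.5 UMIs (comparison), against 17735 (high-fat) and 15144 (comparison) at pachytene. Counts per cell were not compared between stages. The interval of the highest stage overlapped that of the next stage in the high-fat library for Mei4, Mlh3, Brca1, Mcmdc2, Hsf2bp and Exo1. In the comparison library it did so for Spo11, Rec114, Tex11, Brca1, Mnd1, Trip13, Mcmdc2, Sun1 and Exo1.

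**Figure D1:**
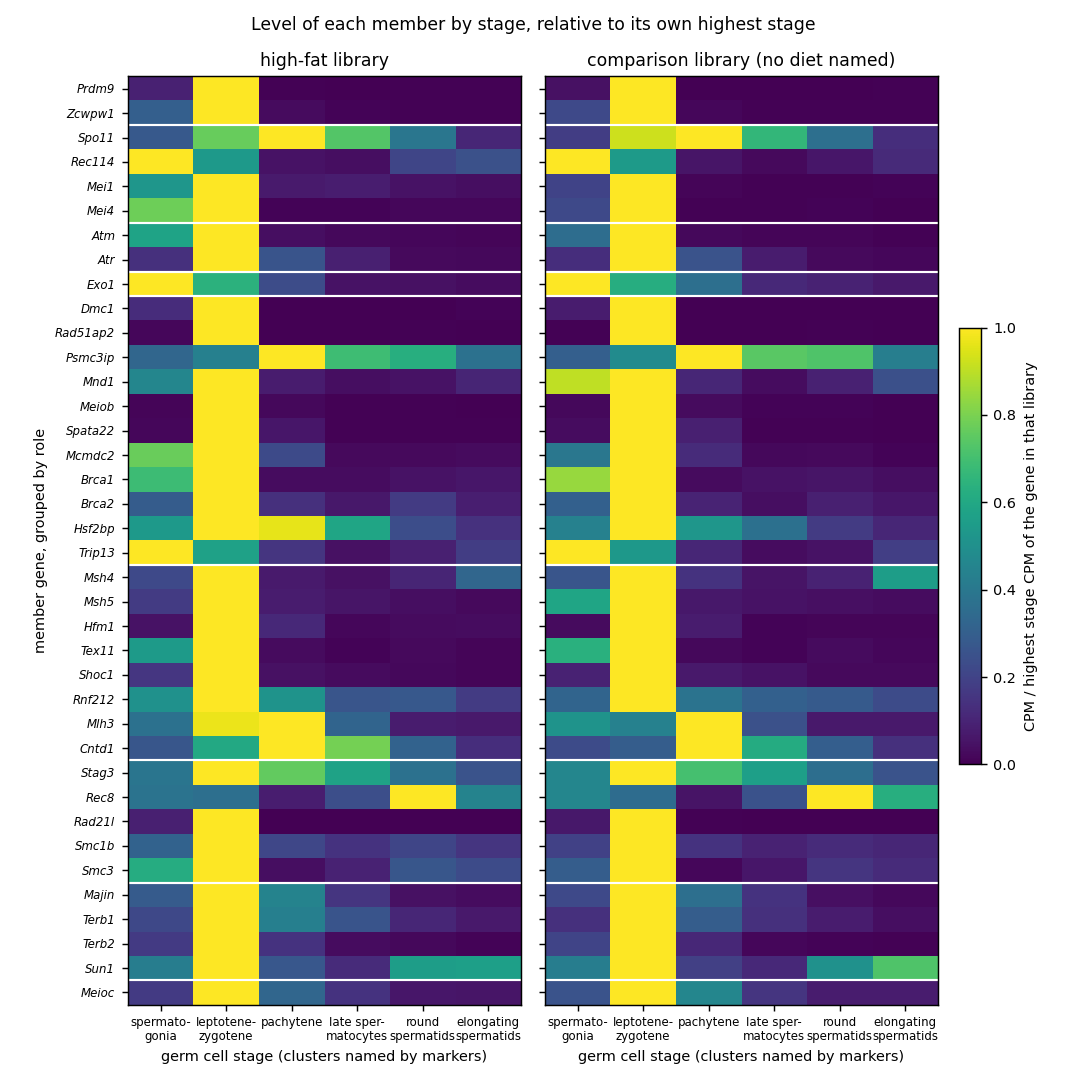
Level of each of the 38 genes in the 6 germ cell stages (CPM divided by the gene's own highest stage in that library, colour scale 0 to 1), high-fat library on the left and comparison library, with no diet named, on the right, with genes grouped by role and white lines between roles. The bright column at leptotene-zygotene holds 30 of the 38 genes in each library.

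The genes that set or read the marks of break sites were highest at leptotene-zygotene. Prdm9, the methyltransferase that marks hotspots, stood at 124 CPM (106 to 144) in the high-fat library and 173 CPM (141 to 211) in the comparison library in leptotene-zygotene cells. That was 10.8 times its level in the next stage, spermatogonia, in the high-fat library and 21.5 times in the comparison library. By pachytene it had fallen to 0.561 CPM in the high-fat library and 0.652 CPM in the comparison library. Zcwpw1, which reads the histone marks that PRDM9 leaves, stood at 539.7 CPM (501 to 580.1) in the high-fat library and 728 CPM (660.4 to 801) in the comparison library in leptotene-zygotene cells. It was detected already in spermatogonia at 164 CPM in the high-fat library and 160.4 CPM in the comparison library and had fallen to 16.3 CPM in the high-fat library and 13.97 CPM in the comparison library at pachytene. A UMI of Zcwpw1 was seen in 60.8% (55.9 to 65.4) of leptotene-zygotene cells in the high-fat library and 66.7% (59.9 to 73.00) in the comparison library (exact Clopper-Pearson 95% intervals). In Sertoli-like cells, which should lack it, the shares were 1.93% (1.24 to 2.86) and 1.37% (0.659 to 2.505), at median depths of 1532 and 1324.5 UMIs.

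The break-forming genes did not share a single pattern. Spo11, which encodes the cutting enzyme itself, stood at 95.6 CPM (91.9 to 99.3) in the high-fat library and 71.4 CPM (68.1 to 74.8) in the comparison library at pachytene, later than the breaks it is known for. Its leptotene-zygotene level was 73.2 CPM (59.6 to 89.1) in the high-fat library and 65.9 CPM (46.6 to 90.5) in the comparison library, and in the comparison library those 2 intervals overlapped. It was still at 69.8 CPM in the high-fat library and 47.4 CPM in the comparison library in late spermatocytes and at 37.4 CPM in the high-fat library and 26.2 CPM in the comparison library in round spermatids, where Sertoli-like cells held 34.7 (high-fat) and 25.1 CPM (comparison). Rec114, an accessory factor that SPO11 needs, was instead highest in spermatogonia at 49.2 CPM (41.7 to 57.7) in the high-fat library and 54.2 CPM (45.4 to 64.1) in the comparison library, with 26.4 CPM in the high-fat library and 29.5 CPM in the comparison library in leptotene-zygotene cells. Mei1, another factor needed for breaks, stood at 53.5 CPM (41.9 to 67.2) in the high-fat library and 159.6 CPM (129 to 196) in the comparison library in leptotene-zygotene cells. Mei4, a partner of REC114, had 35 counts there over both libraries, and its interval overlapped that of spermatogonia in the high-fat library.

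Within the spermatogonia, a second round of clustering together with the leptotene-zygotene cells set apart a small group with the stem cell markers Zbtb16 and Sall4 (80 cells in the high-fat library and 59 in the comparison library) and a larger group with Kit, a marker of differentiating cells (334 and 302). Rec114 stood at 90.6 (high-fat) and 55.7 CPM (comparison) in the small group and at 36.2 (high-fat) and 53.7 CPM (comparison) in the group with Kit. Trip13, an ATPase that strips HORMA proteins from chromosomes, stood at 58.1 (high-fat) and 66.3 CPM (comparison) in the small group and at 38.7 (high-fat) and 47.1 CPM (comparison) in the group with Kit. Prdm9, by contrast, was at 3.42 CPM in the small group of the high-fat library, with 0 counts in that of the comparison library.

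**Figure D2:**
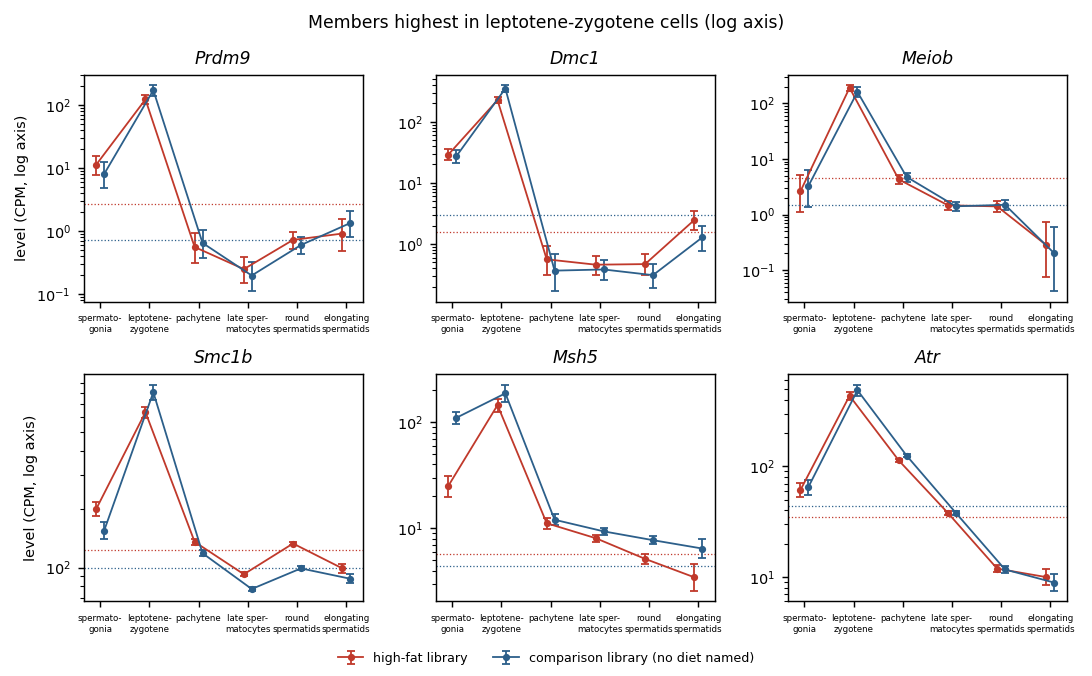
Level (CPM, log axis) of 6 genes that were highest in leptotene-zygotene cells, by germ cell stage, in the high-fat library (red) and the comparison library (blue); bars are exact Poisson 95% intervals and dotted lines are the levels in Sertoli-like cells. Prdm9, Dmc1 and Meiob fall by over 10-fold between leptotene-zygotene cells and pachytene, while Atr and Smc1b stand at over 100 CPM at pachytene in both libraries. Sertoli-like cells hold 124 (high-fat) and 99.5 CPM (comparison) of Smc1b and 34.7 (high-fat) and 43.5 CPM (comparison) of Atr.

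The kinases that signal broken DNA were both highest at leptotene-zygotene. Atm, which responds to double-strand ends, stood at 81.3 CPM (66.9 to 97.9) in the high-fat library and 125 CPM (97.7 to 157) in the comparison library and had fallen to 3.14 CPM in the high-fat library and 2.69 CPM in the comparison library at pachytene. Atr, which acts on unpaired chromosome axes and on the sex chromosomes, stood at 436 CPM (401 to 472) in the high-fat library and 489 CPM (434 to 549.6) in the comparison library and was still at 113 CPM in the high-fat library and 125 CPM in the comparison library at pachytene. Atr lies opposite the non-coding gene 1700065D16Rik, and counting by strand is not stated, so reads of the pair cannot be told apart. Exo1, a nuclease that trims ends, was highest in spermatogonia at 22.8 CPM (17.8 to 28.8) in the high-fat library and 22.2 CPM (16.7 to 28.9) in the comparison library, and its interval overlapped that of leptotene-zygotene cells in both libraries.

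Dmc1, Meiob and Rad51ap2, of the strand-invasion step, fell steeply after zygotene. Dmc1, the meiotic strand-exchange enzyme, stood at 226 CPM (202 to 253) in the high-fat library and 350.3 CPM (304 to 402) in the comparison library in leptotene-zygotene cells and at 0.561 CPM in the high-fat library and 0.366 CPM in the comparison library at pachytene. Meiob, whose product coats single-stranded DNA together with SPATA22, stood at 191 CPM (169 to 216) in the high-fat library and 161 CPM (130.2 to 198) in the comparison library and fell to 4.299 CPM in the high-fat library and 4.76 CPM in the comparison library at pachytene. Rad51ap2 stood at 141 CPM (122 to 163) in the high-fat library and 128 CPM (101 to 161) in the comparison library and was 61.9 times its next highest stage in the high-fat library and 159 times in the comparison library. Its level in spermatogonia rested on 7 counts in the high-fat library and 2 counts in the comparison library. None of these genes was used to define the leptotene-zygotene cells.

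Brca2, which loads the recombinases, stood at 228 CPM (204 to 255) in the high-fat library and 339.9 CPM (294 to 391) in the comparison library at leptotene-zygotene. In round spermatids it stood at 40.1 CPM in the high-fat library and 30.4 CPM in the comparison library. Sertoli-like cells held 42.9 (high-fat) and 16.95 CPM (comparison) of Brca2. Hsf2bp, a partner of BRCA2 in meiosis, stood at 135 CPM (117 to 156) in the high-fat library and 232 CPM (195 to 275) in the comparison library at leptotene-zygotene and at 130.3 CPM (126 to 135) in the high-fat library and 122 CPM (118 to 126) in the comparison library at pachytene, so that in the high-fat library the 2 stages had overlapping intervals. Psmc3ip, which encodes HOP2, the partner of MND1 in strand invasion, was highest at pachytene with 471 CPM (463 to 479.7) in the high-fat library and 418 CPM (410.4 to 427) in the comparison library. It stayed at 325 CPM in the high-fat library and 312 CPM in the comparison library in late spermatocytes and 295 CPM in the high-fat library and 304 CPM in the comparison library in round spermatids, and Sertoli-like cells, which should lack it, held 204 (high-fat) and 210.1 CPM (comparison). The leptotene-zygotene level of Psmc3ip, 205 CPM in the high-fat library and 201 CPM in the comparison library, was thus at the level of Sertoli-like cells, and only pachytene and the stages after it up to round spermatids lay above. Trip13 was highest in spermatogonia with 38.5 CPM (31.8 to 46.1) in the high-fat library and 45.7 CPM (37.6 to 54.9) in the comparison library. Spata22, Mnd1, Brca1 and Mcmdc2, an MCM-like factor of strand exchange, had 29 to 79 counts over both libraries in their highest stage, which was leptotene-zygotene for each.

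Most crossover genes were highest at leptotene-zygotene, and Mlh3 and Cntd1 at pachytene. Msh4 and Msh5, which form a clamp on joined DNA, stood at leptotene-zygotene at 59.3 CPM (47.1 to 73.7) in the high-fat library and 41.6 CPM (26.7 to 61.9) in the comparison library for Msh4 and 145 CPM (125 to 167) in the high-fat library and 187 CPM (154 to 226) in the comparison library for Msh5. Hfm1, a helicase, stood at 177 CPM (156 to 201) in the high-fat library and 165 CPM (133 to 201) in the comparison library, and at pachytene at 20.4 CPM in the high-fat library and 12.4 CPM in the comparison library. Tex11, an X-linked crossover gene, stood at 66.6 CPM (53.7 to 81.8) in the high-fat library and 74.6 CPM (53.97 to 100.4) in the comparison library, and its pachytene level was 1.98 CPM in the high-fat library and 1.55 CPM in the comparison library. Shoc1, related to a yeast factor that works with the MSH4-MSH5 clamp, stood at 76.2 CPM (62.2 to 92.3) in the high-fat library and 119.7 CPM (93.1 to 151) in the comparison library. Mlh3, a nuclease subunit that acts at crossover sites, was instead highest at pachytene with 22.6 CPM (20.9 to 24.5) in the high-fat library and 27.6 CPM (25.6 to 29.8) in the comparison library, and in the high-fat library its interval overlapped that of leptotene-zygotene cells. Within the class, cluster 13 held 36.6 (high-fat) and 42.01 CPM (comparison) of Mlh3, and cluster 10 held 12.9 (high-fat) and 14.3 CPM (comparison). Cntd1, a cyclin-like factor that limits crossover sites, was highest at pachytene with 102 CPM (98.3 to 106) in the high-fat library and 99.8 CPM (95.9 to 104) in the comparison library and still stood at 80.6 CPM in the high-fat library and 61.5 CPM in the comparison library in late spermatocytes, against 27.8 (high-fat) and 48.7 CPM (comparison) in Sertoli-like cells.

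**Figure D3:**
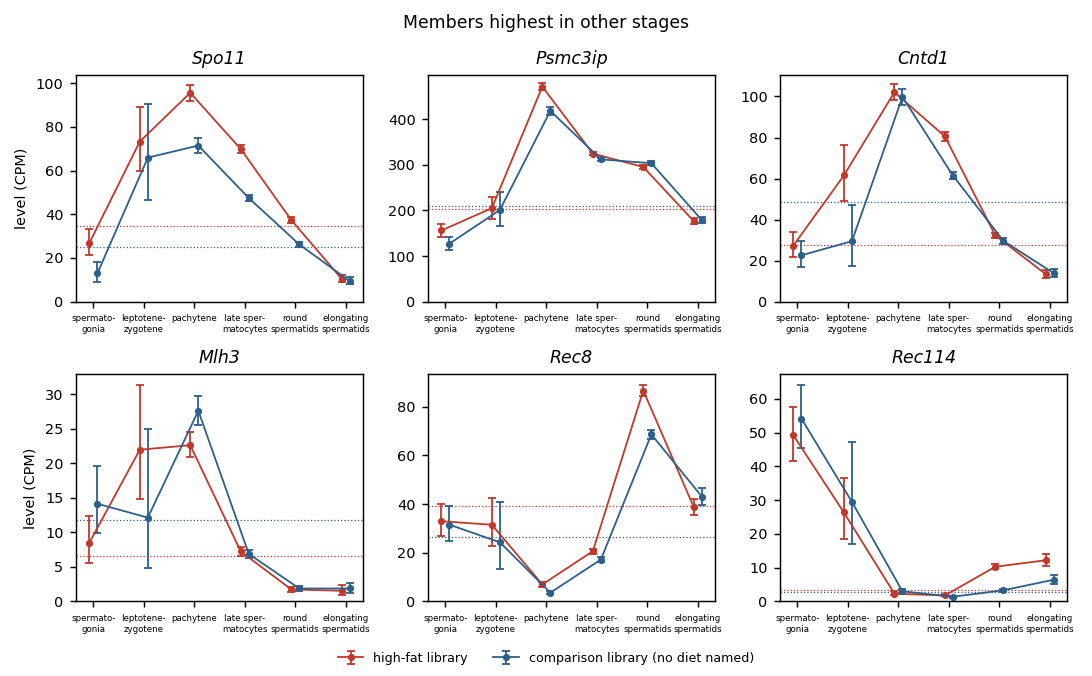
Level (CPM, linear axis from 0) of the 4 genes highest at pachytene, of Rec8 and of Rec114, by germ cell stage, in the high-fat library (red) and the comparison library (blue); bars are exact Poisson 95% intervals and dotted lines are levels in Sertoli-like cells. Rec8 is highest in round spermatids in both libraries, at 86.6 CPM (high-fat) and 68.6 CPM (comparison), and Rec114 in spermatogonia.

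The cohesin subunits also split. Smc1b, the meiotic partner of SMC3, stood at 636 CPM (595 to 680.1) in the high-fat library and 806 CPM (735 to 883) in the comparison library in leptotene-zygotene cells, and Stag3, the meiosis-specific outer subunit, at 192 CPM (169 to 217) in the high-fat library and 194 CPM (159.9 to 234) in the comparison library. Stag3 kept 146 CPM in the high-fat library and 137 CPM in the comparison library at pachytene. Smc3, the subunit shared with dividing cells, stood at 181 CPM (159 to 205) in the high-fat library and 276 CPM (235 to 322) in the comparison library, fell to 7.03 CPM in the high-fat library and 4.85 CPM in the comparison library at pachytene and was again at 48.3 CPM in the high-fat library and 42.6 CPM in the comparison library in round spermatids. Rad21l, a meiotic kleisin, had 53 counts over both libraries in its highest stage, leptotene-zygotene, and 5 or fewer counts per library from pachytene onward. Rec8, the other meiotic kleisin, went against the rest: it stood at 86.6 CPM (84.3 to 88.9) in the high-fat library and 68.6 CPM (66.6 to 70.6) in the comparison library in round spermatids, while at pachytene, where the protein is known to sit along paired chromosomes, it stood at 6.99 CPM in the high-fat library and 3.62 CPM in the comparison library. Its leptotene-zygotene level of 31.5 CPM in the high-fat library and 24.3 CPM in the comparison library lay beside 38.99 (high-fat) and 26.5 CPM (comparison) in Sertoli-like cells, and its round spermatid interval was above that of Sertoli-like cells in both libraries.

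The genes that tie telomeres to the nuclear envelope were highest at leptotene-zygotene, as the break-repair genes were, and Majin and Terb1 were still above Sertoli-like cells at pachytene. Majin, the membrane anchor, stood at 77.6 CPM (63.5 to 93.9) in the high-fat library and 95.4 CPM (71.9 to 124) in the comparison library in leptotene-zygotene cells and at 34.7 CPM in the high-fat library and 35.02 CPM in the comparison library at pachytene. Terb1, which binds the telomere, stood at 96.7 CPM (80.9 to 115) in the high-fat library and 135 CPM (107 to 169) in the comparison library and at 41.6 CPM in the high-fat library and 39.99 CPM in the comparison library at pachytene. Terb2, the link between them, stood at 60.8 CPM (48.4 to 75.3) in the high-fat library and 69.4 CPM (49.6 to 94.5) in the comparison library and at 9.01 CPM in the high-fat library and 7.82 CPM in the comparison library at pachytene. Sun1, which spans the inner envelope, had a second high level: after 82.7 CPM (68.2 to 99.5) in the high-fat library and 95.4 CPM (71.9 to 124) in the comparison library in leptotene-zygotene cells and 10.3 CPM in the high-fat library and 10.9 CPM in the comparison library in late spermatocytes, it stood at 46.7 CPM in the high-fat library and 69.1 CPM in the comparison library in elongating spermatids. Within the round spermatid clusters taken in order, Sun1 stood at 22.6, 38.7, 59.2 and 59.7 CPM in the high-fat library and at 24.9, 42.5, 67.6 and 81.6 CPM in the comparison library. Meioc, which keeps germ cells in the meiotic programme, stood at 196 CPM (173 to 220.4) in the high-fat library and 166 CPM (135 to 203) in the comparison library in leptotene-zygotene cells and at 64.9 CPM in the high-fat library and 76.7 CPM in the comparison library at pachytene.

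Droplets also capture free RNA, so levels were set beside those of Sertoli-like cells, which should lack the meiosis-specific members but may use Smc3, Brca1, Brca2, Atm, Atr, Exo1 and Sun1. In leptotene-zygotene cells, 36 of the 38 genes lay above the interval of Sertoli-like cells in the high-fat library and 32 in the comparison library. At pachytene 14 did so in each library, in late spermatocytes 6 in the high-fat library and 4 in the comparison library, in round spermatids 4 in each and in elongating spermatids 3 in each. The share of all genes above Sertoli-like cells was not counted, so these numbers do not set the 38 apart from other genes. Levels of a few CPM in the later stages were thus mostly at or under what Sertoli-like cells showed. Sertoli-like cells were shallow, with medians of 1532 (high-fat) and 1324.5 UMIs (comparison), against 19933 (high-fat) and 14748 (comparison) in round spermatids. Their level is therefore not a fixed floor for the deeper stages, and the part of depth was not tested. The median gene had a UMI in 18.4% of leptotene-zygotene cells in the high-fat library and 20.5% in the comparison library. After thinning every cell to 1000 UMIs, these shares were 7.33% (high-fat) and 9.05% (comparison), against 0.564% (high-fat) and 0.822% (comparison) in Sertoli-like cells.

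Between the libraries, a ratio is the level in the high-fat library over that in the comparison library, with an exact conditional binomial 95% interval for counting error. A gene was counted as higher at 1.5-fold or more and as lower at 1/1.5 or less, among genes with at least 20 counts over both libraries in the stage. In leptotene-zygotene cells all 38 genes had enough counts: 3 were higher and 8 lower, where 18.5% of all 10291 genes were higher and 12.1% lower. The 8 made up 21.1% of the 38, and the median log2 ratio of the 38 was -0.18, beside 0.03 over all genes. With called doublets kept, 7 genes in place of these 11 were 1.5-fold apart. In spermatogonia 34 genes had enough counts, 3 were higher and 3 lower, where 17.5% of all genes were higher and 12.6% lower. In round spermatids the numbers were 37, 7 and 5, where 23.5% were higher and 16.1% lower, and in elongating spermatids 31, 6 and 4, where 20.5% were higher and 16.9% lower. In these last 3 stages the shares of the 38 that were higher or lower both lay under the background, and their median log2 ratios ran between -0.10 and 0.03, beside 0.01 to 0.05 over all genes.

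The round and elongating spermatid classes were made up differently in the 2 libraries. Of the round spermatids, clusters 5, 3, 6 and 11 held 21.1%, 23.4%, 34.6% and 20.9% in the high-fat library and 30.4%, 33.6%, 21.1% and 14.9% in the comparison library. Of the elongating spermatids, cluster 17, which is led by protamine and transition protein genes, held 26.9% in the high-fat library and 14.8% in the comparison library, and cluster 8 held the rest. The part of this makeup in the class ratios was not tested, and tallies over single clusters are given below for some genes.

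Among the spermatocyte clusters, cluster 13 (345 cells in the high-fat library and 636 in the comparison library) had 34 of the 38 genes with enough counts. Of these 4 were higher and 1 lower, where 18.2% of all genes were higher and 12.0% lower. In cluster 10 (624 and 496 cells) the numbers were 31, 9 and 4, where 25.5% of all genes were higher and 11.1% lower. In cluster 14 (359 and 604 cells) they were 29, 4 and 3, where 20.2% were higher and 12.4% lower, and in cluster 0 (677 and 1481 cells) 31, 4 and 4, where 21.4% were higher and 14.6% lower. In each of these 4 clusters the shares of the 38 were near or under the background. Clusters 1 and 4 came almost wholly from 1 library each. Cluster 1 held 1912 cells of the high-fat library and 157 of the comparison library, and cluster 4 held 51 and 1683. Cluster and library cannot be told apart there, and no count of higher or lower genes is given. Tallies over clusters given below for single genes can still include them.

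**Figure D4:**
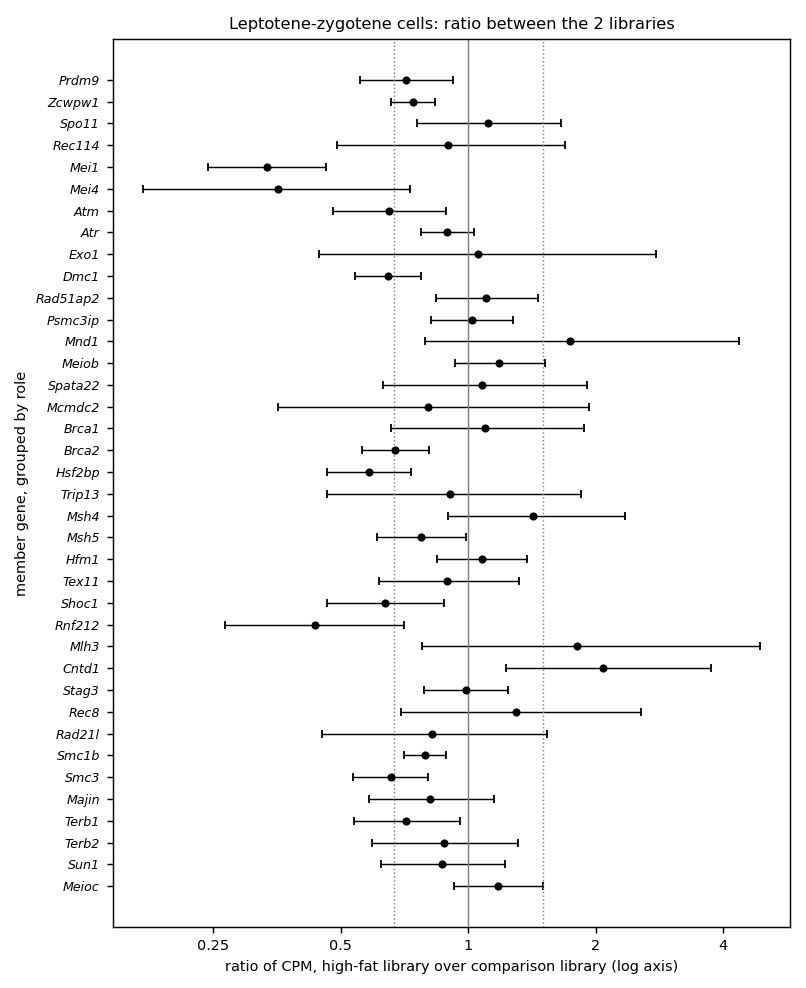
Ratio of the level in the high-fat library over that in the comparison library for each of the 38 genes in leptotene-zygotene cells (log axis), with exact conditional binomial 95% intervals; the solid line marks 1 and dotted lines mark 1.5 and 1/1.5. Most points lie left of 1, Mei1 is farthest left at 0.335 and Cntd1 farthest right at 2.09.

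Of the leptotene-zygotene genes with at least 100 counts, 6 were lower in the high-fat library. Mei1 stood at 53.5 CPM in the high-fat library, against 159.6 CPM in the comparison library, a ratio of 0.335 (0.243 to 0.461). A single cell of the comparison library held 17 of its 92 counts of Mei1, 18.5%, and without the cell with most counts in each library the ratio kept its direction and stayed within this interval. Hsf2bp stood at 135 CPM in the high-fat library, against 232 CPM in the comparison library, a ratio of 0.583 (0.464 to 0.734). Rrp1b, which lies opposite it, stood at 55.7 CPM in the high-fat library and 74.6 CPM in the comparison library, a ratio of 0.746 (0.507 to 1.11). Shoc1 stood at 76.2 CPM in the high-fat library, against 119.7 CPM in the comparison library (ratio 0.636, 0.465 to 0.876) and Dmc1 at 226 CPM in the high-fat library, against 350.3 CPM in the comparison library (ratio 0.646, 0.539 to 0.775). For Atm the levels were 81.3 CPM in the high-fat library, against 125 CPM in the comparison library (ratio 0.651, 0.4796 to 0.888), and for Smc3 181 CPM in the high-fat library, against 276 CPM in the comparison library (ratio 0.656, 0.535 to 0.806). Mei4 and Rnf212 were lower on fewer than 100 counts, and so were Mlh3 and Mnd1 higher. Cntd1 was higher, with 61.5 CPM in the high-fat library, against 29.5 CPM in the comparison library (ratio 2.09, 1.23 to 3.75), beside 27.8 (high-fat) and 48.7 CPM (comparison) in Sertoli-like cells, while its opposite-strand neighbour Becn1 stood at 114 CPM in the high-fat library and 84.98 CPM in the comparison library, a ratio of 1.34 (0.969 to 1.89). Coa3, also opposite it, stood at 41.7 CPM in the high-fat library and 43.4 CPM in the comparison library, a ratio of 0.963 (0.592 to 1.61).

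The leptotene-zygotene cells of the 2 libraries were alike in some markers and not in others. The 12 leptotene-zygotene markers in the files summed to 6797 CPM in the high-fat library and 6292 CPM in the comparison library, with none at 0. Single markers within that sum moved both ways. Sycp3 stood at 1886 (high-fat) and 1217 CPM (comparison) and Hormad1 at 304 (high-fat) and 213 CPM (comparison). Syce2 stood at 425 (high-fat) and 633 CPM (comparison) and Syce1 at 344 (high-fat) and 496 CPM (comparison). The 8 Sertoli markers summed to 106 (high-fat) and 303 CPM (comparison), with 1 of the 8 at 0 in each library, beside 7270 (high-fat) and 5692 CPM (comparison) in the Sertoli-like cells. The 10 elongating spermatid markers, which leptotene cells should lack, summed to 3597 (high-fat) and 1868 CPM (comparison), with none at 0. The part of these marker differences in the ratios was not tested.

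In spermatogonia, Msh5 stood at 25.1 CPM in the high-fat library, against 109.9 CPM in the comparison library, a ratio of 0.228 (0.175 to 0.295). This was the lowest ratio of any of the 38 genes in any of the 6 stages among those with at least 20 counts. A single cell of the comparison library held 58 of its 272 counts, 21.3%, and without it the gene was still lower. The gap was widest in the group with Kit, at 29.98 CPM in the high-fat library and 167 CPM in the comparison library. In the group with stem cell markers, Msh5 stood at 20.5 (high-fat) and 15.9 CPM (comparison). Brca2 was also lower in spermatogonia, at 66.8 CPM in the high-fat library, against 105 CPM in the comparison library (ratio 0.638, 0.529 to 0.7698). At a finer clustering, however, its log2 ratio was 0.069. One cell of the comparison library held 31 of its 259 counts of Brca2, 12.0%. Without the cell with most counts in each library the ratio stayed within its interval, which reaches past the limit for a lower call. The call of Brca2 as lower in spermatogonia therefore rests in part on that cell. Spo11 was higher there, at 26.7 CPM in the high-fat library, against 12.9 CPM in the comparison library (ratio 2.07, 1.36 to 3.21), and these levels lay no higher than the 34.7 (high-fat) and 25.1 CPM (comparison) of Sertoli-like cells.

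By the rule of at least 100 counts and 1.5-fold, 24 combinations of gene and stage in 17 genes were named over the 4 stages compared by name, 10 higher and 14 lower in the high-fat library. In 8 of the 24 the level lay above that of Sertoli-like cells in both libraries, in 3 in only 1 library, and in 13 in neither. The 8 are the 6 lower genes of leptotene-zygotene cells and Msh5 and Brca2 in spermatogonia. For the other combinations the Sertoli-like level of the same gene is given beside the value, and whether free RNA has a part in them was not tested. The same rule was applied within clusters 13, 10, 14 and 0.

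Rnf212, a ring-finger protein whose dosage is known to affect crossover number, was lower in the high-fat library in clusters 10, 14 and 0 and in both spermatid stages. In cluster 10 its level was 11.1 CPM in the high-fat library, against 21.99 CPM in the comparison library (ratio 0.505, 0.416 to 0.612). In cluster 14 it was 7.796 CPM in the high-fat library, against 15.3 CPM in the comparison library (ratio 0.511, 0.383 to 0.677), and in cluster 0 7.37 CPM in the high-fat library, against 20.9 CPM in the comparison library (ratio 0.352, 0.283 to 0.433). In cluster 13 the ratio was 0.694 (0.577 to 0.833), short of 1/1.5. Round spermatids held 7.500 CPM in the high-fat library, against 17.6 CPM in the comparison library (ratio 0.426, 0.382 to 0.474). It stood in elongating spermatids at 4.66 CPM in the high-fat library, against 14.2 CPM in the comparison library (ratio 0.328, 0.245 to 0.435). Among the 12 germ cell clusters with enough counts, the ratio was below 1 in all 12, with the interval below 1 in 11. All clusters come from the same 2 libraries, so such tallies, here and below, do not repeat the comparison. Sertoli-like cells showed 6.95 CPM in the high-fat library and 13.3 CPM in the comparison library, a ratio of 0.524 (0.257 to 1.07). The non-coding gene 1700047L14Rik on the opposite strand ran the other way in round spermatids, at 8.503 CPM in the high-fat library and 5.63 CPM in the comparison library, a ratio of 1.51 (1.32 to 1.73).

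Shoc1 was lower in all 4 spermatocyte clusters compared. In cluster 13 it stood at 5.36 CPM in the high-fat library, against 10.7 CPM in the comparison library (ratio 0.502, 0.362 to 0.689), and in cluster 10 at 1.84 CPM in the high-fat library, against 5.87 CPM in the comparison library (ratio 0.314, 0.197 to 0.487). Its ratios in clusters 14 and 0 were 0.5600 (0.391 to 0.793) and 0.385 (0.245 to 0.586). It was also lower in round spermatids, with 1.54 CPM in the high-fat library, against 3.25 CPM in the comparison library (ratio 0.472, 0.367 to 0.603). The ratio was below 1 in 11 of 12 clusters, with spermatogonia the exception at 1.07 (0.635 to 1.81). Its level in Sertoli-like cells was 1.54 (high-fat) and 4.42 CPM (comparison), on 4 counts in the high-fat library and 6 counts in the comparison library. Exo1 was lower in cluster 10, with 2.86 CPM in the high-fat library, against 5.64 CPM in the comparison library (ratio 0.507, 0.341 to 0.746), and in round spermatids (ratio 0.487, 0.356 to 0.6604), where Sertoli-like cells held 5.02 (high-fat) and 6.63 CPM (comparison). The Exo1 ratio was below 1 in 9 of 11 clusters with enough counts, with the interval below 1 in 8. Msh5 was lower in round spermatids, with 5.16 CPM in the high-fat library, against 7.74 CPM in the comparison library (ratio 0.666, 0.578 to 0.767), and in elongating spermatids, with 3.46 CPM in the high-fat library, against 6.46 CPM in the comparison library (ratio 0.536, 0.372 to 0.763), beside 5.79 (high-fat) and 4.42 CPM (comparison) in Sertoli-like cells. Its ratio was below 1 in all 13 clusters with enough counts, with the interval below 1 in 8.

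Hfm1 was higher in clusters 13 and 10 and in both spermatid stages, and nearly level in leptotene-zygotene cells, where its ratio was 1.08 (0.845 to 1.38). In cluster 13 it stood at 35.1 CPM in the high-fat library, against 20.96 CPM in the comparison library (ratio 1.67, 1.42 to 1.97), and in cluster 10 at 10.1 CPM in the high-fat library, against 4.46 CPM in the comparison library (ratio 2.26, 1.66 to 3.12). In round spermatids it stood at 5.35 CPM in the high-fat library, against 2.38 CPM in the comparison library (ratio 2.25, 1.85 to 2.73). In elongating spermatids it stood at 5.79 CPM in the high-fat library, against 2.08 CPM in the comparison library (ratio 2.78, 1.82 to 4.34). The spermatid levels were at or under the 6.56 (high-fat) and 5.16 CPM (comparison) of Sertoli-like cells by their intervals. The ratio was above 1 in all 12 clusters with enough counts, with the interval above 1 in 8. With the libraries clustered separately, the log2 ratio of Hfm1 over the cells then named pachytene was -0.11.

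Mei1 turned round between stages. It was lower in leptotene-zygotene cells, as given above, and higher in round spermatids, with 2.54 CPM in the high-fat library, against 0.897 CPM in the comparison library (ratio 2.83, 2.09 to 3.87). In the spermatocyte clusters, on under 100 counts each, its ratios were 1.64 (1.01 to 2.695) in cluster 13, 2.84 (1.61 to 5.303) in cluster 10, 2.96 (1.64 to 5.62) in cluster 14 and 6.29 (3.54 to 11.8) in cluster 0. The later levels lay beside 3.86 (high-fat) and 0.737 CPM (comparison) in Sertoli-like cells, which rest on 10 counts in the high-fat library and 1 count in the comparison library, a ratio of 5.24 (0.745 to 227). Rec114 was higher in round spermatids, with 10.3 CPM in the high-fat library, against 3.32 CPM in the comparison library (ratio 3.097, 2.66 to 3.62), and in elongating spermatids, with 12.2 CPM in the high-fat library, against 6.46 CPM in the comparison library (ratio 1.89, 1.47 to 2.45). In the high-fat library both levels lay above the 3.47 CPM of Sertoli-like cells, and in the comparison library the intervals overlapped its 2.95 CPM. Over single germ cell clusters with enough counts, the Rec114 ratio was above 1 in 8 of 11 and below 1 in 3. The interval lay above 1 in 6 of them and below 1 in 1, and the ratios ran from 0.570 to 3.295. Nptn, a membrane protein gene on the opposite strand, stood in round spermatids at 58.5 CPM in the high-fat library and 44.2 CPM in the comparison library, a ratio of 1.33 (1.26 to 1.39), and in elongating spermatids at 39.6 CPM in the high-fat library and 70.1 CPM in the comparison library, a ratio of 0.565 (0.509 to 0.627).

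**Figure D5:**
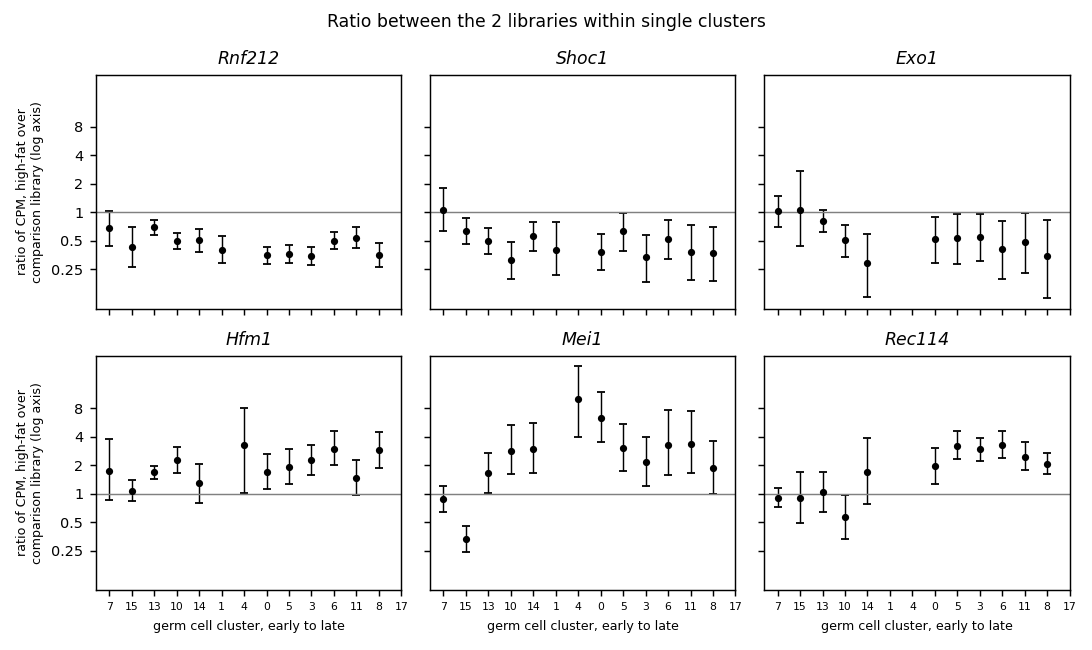
Ratio of the level in the high-fat library over that in the comparison library (log axis) within single germ cell clusters, ordered from spermatogonia (7) to elongating spermatids (17), for 6 genes; bars are exact conditional binomial 95% intervals, the line marks 1, and clusters with under 20 counts, or under 5 in a library, are left out. Clusters 1 and 4 are mostly cells of 1 library. Rnf212 lies below 1 in every cluster shown and Hfm1 above 1 in every cluster shown, while Mei1 lies below 1 in spermatogonia (7) and leptotene-zygotene cells (15) and above 1 in the later clusters shown.

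Rec8 was higher in 3 of the spermatocyte clusters. In cluster 13 it stood at 7.82 CPM in the high-fat library, against 4.24 CPM in the comparison library (ratio 1.84, 1.29 to 2.67). In cluster 10 it stood at 6.41 CPM in the high-fat library, against 3.05 CPM in the comparison library (ratio 2.101, 1.44 to 3.12). In cluster 14 it stood at 22.8 CPM in the high-fat library, against 13.1 CPM in the comparison library (ratio 1.73, 1.39 to 2.16). Sertoli-like cells held 38.99 (high-fat) and 26.5 CPM (comparison). Cluster 10 also had Smc3, Terb2 and Sun1 higher, with ratios of 1.65 (1.18 to 2.33), 1.599 (1.05 to 2.48) and 1.52 (1.24 to 1.87). Sertoli-like cells held 55.6 (high-fat) and 42.02 CPM (comparison) of Smc3 and 19.3 (high-fat) and 21.4 CPM (comparison) of Sun1. Mcmdc2 was higher in cluster 13 (ratio 1.55, 1.04 to 2.32), beside 2.32 (high-fat) and 1.47 CPM (comparison) in Sertoli-like cells. Brca2 was higher in cluster 0 (ratio 1.61, 1.32 to 1.96), beside 42.9 (high-fat) and 16.95 CPM (comparison) in Sertoli-like cells. In round spermatids Terb2 was higher with a ratio of 1.88 (1.29 to 2.78), Msh4 with 1.51 (1.29 to 1.77) and Trip13 with 1.57 (1.27 to 1.96). Over single germ cell clusters with enough counts, the directions were mixed. The ratio was above 1 in 6 of 10 clusters for Terb2, 7 of 12 for Msh4 and 5 of 11 for Trip13. The interval lay above 1 in 2, 2 and 1 of them. Sertoli-like cells held 1.16 (high-fat) and 3.69 CPM (comparison) of Terb2, 4.63 (high-fat) and 1.47 CPM (comparison) of Msh4 and 9.27 (high-fat) and 10.3 CPM (comparison) of Trip13. The Msh4 log2 ratio became -0.79 once the level of Sertoli-like cells was subtracted.

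A wider list of 68 other recombination and cohesin genes was measured in the same way. In leptotene-zygotene cells 60 had enough counts, of which 2 were higher and 10 lower, beside the 18.5% and 12.1% of all genes, and their median log2 ratio was -0.24. Tex15, a partner of break repair in the male germ line, stood at 348 CPM in the high-fat library, against 574 CPM in the comparison library (ratio 0.606, 0.525 to 0.699). Sfr1, a cofactor of the recombinases, stood at 165 CPM in the high-fat library, against 281 CPM in the comparison library (ratio 0.586, 0.477 to 0.722). Zcwpw2, a relative of Zcwpw1, had a ratio of 0.623 (0.469 to 0.832) and Terf1, a telomere-binding protein gene, of 0.647 (0.442 to 0.955). Rpa2, a subunit of the general single-strand coat, was higher (ratio 1.799, 1.13 to 2.97).

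In the spermatocyte clusters Rad9b, a subunit of a checkpoint clamp, was higher in all 4 compared. Its ratio was 1.91 (1.63 to 2.24) in cluster 13, 2.48 (2.000 to 3.08) in cluster 10, 2.39 (1.69 to 3.43) in cluster 14 and 2.05 (1.55 to 2.71) in cluster 0. Cluster 13 had 66 of the 68 with enough counts, 5 higher and 4 lower, beside 18.2% and 12.0% of all genes. There Rad51d, a repair gene, was higher (ratio 2.18, 1.598 to 2.99), and so were Rpa3, the smallest subunit of the single-strand coat (ratio 2.07, 1.54 to 2.79), and Hus1b, a clamp subunit (ratio 1.74, 1.29 to 2.37). Zcwpw2 (ratio 0.472, 0.349 to 0.633) and Rad50, of the complex that opens broken ends (ratio 0.602, 0.501 to 0.721), were lower. Cluster 10 had 63 with enough counts, 9 higher and 6 lower, beside 25.5% and 11.1% of all genes. Rad51d (ratio 1.94, 1.45 to 2.63) and Hus1b (ratio 1.79, 1.17 to 2.795) were higher there. So were Eme1, a nuclease subunit (ratio 1.64, 1.14 to 2.39), and Sun2, an envelope protein gene (ratio 1.62, 1.11 to 2.397). Zcwpw2 was lower (ratio 0.606, 0.421 to 0.868). Cluster 14 had 62, with 7 higher and 7 lower beside 20.2% and 12.4% of all genes. Hus1 (ratio 1.57, 1.100 to 2.27) and Rbbp8, an end-trimming factor (ratio 1.52, 1.23 to 1.88), were higher. Sfr1 was lower (ratio 0.664, 0.604 to 0.731). Cluster 0 had 64, with 8 higher and 8 lower beside 21.4% and 14.6% of all genes. Rad50 was lower there (ratio 0.394, 0.303 to 0.507), as was Rad54l, a motor of strand exchange (ratio 0.633, 0.421 to 0.9302). Xrcc2 (ratio 2.02, 1.404 to 2.92) and Rnf212b (ratio 1.56, 1.14 to 2.13) were higher.

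In spermatogonia 67 of the 68 had enough counts, with 6 higher and 3 lower, beside 17.5% and 12.6% of all genes. Rad9b (ratio 1.75, 1.16 to 2.69), Gm960 (ratio 1.61, 1.11 to 2.38), Rad54b (ratio 1.57, 1.05 to 2.39) and Rbbp8 (ratio 1.57, 1.21 to 2.05) were higher and Slx4, a scaffold of nucleases, was lower (ratio 0.651, 0.465 to 0.909). In round spermatids all 68 had enough counts, with 6 higher and 11 lower, beside 23.5% and 16.1% of all genes. Rad51d (ratio 3.54, 2.595 to 4.899), Rad9b (ratio 1.94, 1.601 to 2.35) and Zcwpw2 (ratio 1.84, 1.62 to 2.103) were higher there, and Rad50 (ratio 0.332, 0.267 to 0.4096) and Rad1, another clamp subunit (ratio 0.538, 0.374 to 0.765), were lower. In elongating spermatids 55 had enough counts, with 5 higher and 6 lower, beside 20.5% and 16.9% of all genes. Rad51d (ratio 2.598, 1.78 to 3.85) and Zcwpw2 (ratio 2.27, 1.66 to 3.13) were higher, and Terf1 stood at 30.7 CPM in the high-fat library, against 66.2 CPM in the comparison library (ratio 0.464, 0.413 to 0.519). These ratios carry the same limit as those above, 1 library per group.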

How the data were processed

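The deposited values are raw UMI counts for each gene in each cell barcode. PISA 1.0 wrote the matrices, per the file headers, and the submitters' processing notes name Cell Ranger 2.1.1. Genome build, annotation and use of strand were not found in the sources used here. Of the 38 genes, all matched GENCODE M21 IDs exactly, and 17 are overlapped there by another counted gene, 6 of them on the same strand.

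Cells needed 500 UMIs, 250 genes and at most 20% mitochondrial UMIs, which 3 and 2 barcodes failed (high-fat library, then comparison library). Scrublet (scanpy 1.11.5) by its own threshold called 1 and 612 doublets. The top 6% of scores was therefore left out in each library, 790 and 857 barcodes, a rule chosen after seeing those numbers. The matrices name cells by running numbers, 1507 of which occur in both libraries. Cells were clustered on 2000 variable genes without the 38, with genes scaled within each library (also chosen after seeing the data), 50 components, 20 neighbours and Leiden resolution 1 (leidenalg 0.10.2; igraph 0.11.9). The 23 clusters were named by mean marker score, at least 0.5 over at least 3 markers, and 4 stayed unnamed. The pachytene and late spermatocyte scores of cluster 10 were nearly tied. Between the libraries, the pachytene and late spermatocyte classes were compared by cluster number, a choice made after their leading genes were seen.

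With 1 library per group no test was possible. Full values are given for genes with at least 100 counts in their highest stage, and ratios are named at 100 counts and 1.5-fold. Of the 68 other genes, up to 6 per stage or cluster were named, those with the largest log2 ratio either way among genes with at least 100 counts there. Some results are not reported here. Intervals cover counting error only. The members and lists were chosen with earlier results of these data known. Python 3.11.15 was used with scipy 1.17.1, numpy 2.4.6, pandas 2.3.3 and, for plots, matplotlib 3.10.9. The calculation of ratios was tested on simulated data.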

Additional observations from a re-analysis of the deposited data

Results flagged for a closer look

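The ratio of Mei1 between the libraries ran in opposite directions by stage. The log2 ratio of the high-fat over the comparison library was -1.58 in leptotene-zygotene cells and 1.4998 in round spermatids. It was 1.03 over clusters 10 and 13 pooled and 2.25 over the late spermatocyte clusters pooled. In both pools, leading genes of at least 1 cluster go against the class name, and the clusters were shared unequally between the libraries. None of these intervals included 0, but with 1 library per group the difference between stages was not tested.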

How the results depend on the processing

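No paired analysis was possible because each group has 1 library. The number of genes highest in leptotene-zygotene cells was 27 to 30 under the alternatives, against 30 as reported. Of the 24 named ratios of the 4 stages compared by name, those that left their interval without reversing were 3 with cells weighted equally, 3 with genes scaled over both libraries in the clustering, 2 with the libraries clustered separately, 1 at Leiden resolution 2 and 1 with at least 2000 UMIs. With the Sertoli-like level subtracted 12 of the 24 could be given, and 4 of them left their interval. None of the 24 left it with called doublets kept, the 38 genes kept in the clustering, scaling by the median ratio or without the richest cell. Staying within the interval does not show that a gene still met the rule for higher or lower. The reversed log2 ratios were 0.069 for Brca2 in spermatogonia at Leiden resolution 2, -0.11 for Hfm1 at pachytene with the libraries clustered separately, and -0.79 for Msh4 in round spermatids with the Sertoli-like level subtracted.

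Among summaries, the number of genes 1.5-fold apart in leptotene-zygotene cells was 11 and became 7 with called doublets kept or with at least 100 counts required. Over clusters 10 and 13 together, the pachytene class, where 22.0% of all genes were higher and 12.8% lower, it was 7 and became 3 with the 38 genes kept in the clustering, 15 with the libraries clustered separately and 11 with cells weighted equally. In spermatogonia it was 6 and became 3, and in elongating spermatids it was 10 and became 4, when 100 counts were required. In round spermatids it was 12, and became 7 with the libraries clustered separately and 4 with the Sertoli-like level subtracted, which left 8 genes. That subtraction left 4 genes in elongating spermatids, 3 of them 1.5-fold apart. The median log2 ratio became -0.33 at pachytene and 0.20 in elongating spermatids with the libraries clustered separately, 0.42 in late spermatocytes and -0.59 in elongating spermatids with the Sertoli-like level subtracted, and 0.18 in elongating spermatids with genes scaled over both libraries in the clustering, an alternative added after seeing the data, as was leaving out the richest cell. The cause was not tested. Thinning to 1000 UMIs took the median share of leptotene-zygotene cells with a UMI to 7.33% in the high-fat library and 9.05% in the comparison library.

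Depth limits the early stages most, since leptotene-zygotene cells held 1365628 UMIs in the high-fat library and 576613 in the comparison library.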

Other observations

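A shallow cluster without a name (cluster 12, 438 cells in the high-fat library and 631 in the comparison library, median 2191 UMIs) held some of the 38 genes at levels like or above those of early germ cells. Brca1 stood there at 55.3 CPM in the high-fat library and 83.3 CPM in the comparison library. Those levels were above the 41.7 (high-fat) and 38.2 CPM (comparison) of its highest named stage, leptotene-zygotene. Msh4 stood at 52.3 (high-fat) and 40.6 CPM (comparison). Trip13 stood at 31.5 (high-fat) and 30.6 CPM (comparison). Mnd1 stood at 24.9 CPM in the high-fat library, against 3.997 CPM in the comparison library, a ratio of 6.22 (2.66 to 17.8). The wide interval comes from few counts. Cluster 12 lay outside the stages and clusters compared, so no share over all genes stands beside this ratio. The leading genes of that cluster include Ctnna3, Mast4 and Pcdh9, and its best-scoring markers were those of round spermatids.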
